A study of Danio rerio with 18 samples.

Results

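Transcript levels of genes of the antioxidant and glutathione system were described in whole zebrafish embryos after ionizing radiation. The set was given as 43 gene names, covering the synthesis and reduction of glutathione, the enzymes that use glutathione or thioredoxin to remove peroxides, the superoxide dismutases and catalase, and the regulators nfe2l2 and keap1. A name was matched to rows of the expression tables by gene symbol, ignoring case, and without its paralogue letter where the full symbol was not found. This matched 39 names, 32 by the full symbol and 7 without the letter. No row carried the symbols gstp1, gstp2, mgst1.1 or prdx2. The result was 41 genes of 32057 in the tables, of which 38 reached 1 TPM, a length-corrected share of the transcripts in a library, in at least 2 libraries and entered the tests. The names hmox1a and hmox1b led to 1 row, HMOX1 (ENSDARG00000027529). A match without the letter does not show which paralogue was counted, and this holds for GPX4, HMOX1, SOD3, NFE2L2, KEAP1 and FTH1.

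Embryos received 30 Gy of X-rays at 5 Gy per min at 30 h after fertilization, or were left untreated. The irradiated and untreated groups were p53 +/+ embryos at 3 h and untreated, p53 -/- embryos at 1 h and 3 h and untreated, and puma -/- noxa -/- p21 -/- embryos untreated and at 1 h, 2 h and 3 h, with 2 libraries in each of 9 groups. The triple mutant keeps p53 and lacks effectors of cell death (puma, noxa) and of cell cycle arrest (p21). Nothing in the labels states that a group's 2 libraries came from separate clutches, so p-values measure the spread between libraries. The collection time of untreated embryos is not given either, and a difference from them may hold a difference in age. Whole embryos were used, in which fewer cells of a type and less RNA per cell cannot be told apart.

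In animal cells the transcription factor Nrf2 (nfe2l2) is held by Keap1, which directs it to degradation. Oxidants and electrophiles modify Keap1, and Nrf2 then raises transcription of the enzymes that make and reduce glutathione, of NQO1 and heme oxygenase, and of the thioredoxin system. Zebrafish carry the paralogues nfe2l2a and nfe2l2b, and keap1a and keap1b. Much of the control by Keap1 acts on protein, which these libraries do not measure. Radiation splits water into reactive oxygen species, and p53 is known to raise some antioxidant genes, the sestrins among them.

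The p53 target mdm2 was at 1027 and 1003 TPM in p53 +/+ embryos at 3 h, against 31.8 and 55.6 TPM in untreated ones, and at 49.2 and 57.2 TPM in p53 -/- embryos at 3 h, against 25.9 and 52.2 TPM in untreated ones. In the triple mutant transcripts of the mutated genes were still counted. At 3 h cdkn1a (p21) was at 51.9 to 65.8 TPM, against 1.92 to 3.54 TPM untreated, bbc3 (puma) at 33.8 to 35.4 TPM, against 0.58 to 0.72 TPM, and pmaip1 (noxa) at 5.82 to 6.17 TPM, against 2.7 to 3.35 TPM. Their levels do not check those mutations. Libraries differed in ribosomal RNA: 5.8S ribosomal RNA was at 304 to 631 TPM in 1 library and 13.6 to 52.8 TPM in the other library of the untreated p53 +/+, untreated p53 -/- and 1 h p53 -/- groups, and at 0 in the other 12. Genes at 1 TPM or more numbered 14057 to 17419 per library, and correlations across genes between paired libraries ran from r = 0.907 to 0.994.

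Members differed widely in level. Over the 18 libraries, 9 of the 41 genes had a median of at least 100 TPM, 17 lay between 10 and 100 TPM and 15 were below 10 TPM. TPM corrects for gene length, so levels can be set beside each other. The ferritin heavy chain gene fth1a, which stores iron in a form that cannot feed radical reactions, had the highest median and ranged over 1054 to 1501 TPM. The phospholipid peroxidase gpx4a ranged over 367 to 1686 TPM and TXN, the thioredoxin itself, over 211 to 1542 TPM. In the 8 triple mutant libraries TXN (1269.6 to 1542 TPM) lay above fth1a (1159 to 1265 TPM), and in the other 10 fth1a was above both. The peroxiredoxin PRDX1 (ENSDARG00000025350) ranged over 200.4 to 436 TPM. The regulators were far lower, and 3 members stayed below 1 TPM in every library and were not tested: gpx3, SOD3 (ENSDARG00000079183) and tigara.

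The largest change of a member over the 6 comparisons with untreated embryos was in nfe2l2b (ENSDARG00000089697), a zebrafish Nrf2 paralogue reported in zebrafish embryos to repress several genes. Its level in the triple mutant was 1.40 and 1.40 TPM untreated, 2.32 and 2.30 TPM at 1 h, 2.53 and 2.67 TPM at 2 h, and 6.17 and 6.03 TPM at 3 h. Both libraries at every irradiated time lay above both untreated ones, and both at 3 h lay above all earlier ones. nfe2l2b in p53 +/+ embryos was at 6.66 and 5.85 TPM at 3 h, against 2.75 and 3.68 TPM untreated, again without overlap. nfe2l2b in p53 -/- embryos was at 1.32 and 1.80 TPM at 1 h and 1.18 and 1.06 TPM at 3 h, against 1.12 and 1.77 TPM untreated, and these groups overlapped.

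Changes are differences of mean log2(TPM + 1), irradiated minus untreated, which understate the change of low genes. Calls required an adjusted p under 0.05 over all 18575 genes tested (limma, all 18 libraries in 1 fit, Benjamini-Hochberg). By this test nfe2l2b rose in the triple mutant at 3 h by 1.56 (SE 0.188, adjusted p = 0.00106). No other member was called there, giving 1 of 38 beside 0.748% of all genes. The call held under all 29 alternative settings and left-out libraries, with adjusted p between 7.23e-06 and 0.0232. Between 1 h and 3 h in the triple mutant nfe2l2b rose by 1.1 (adjusted p = 0.0231), where 0.377% of all genes were called. That call was lost without any 1 of 10 libraries, which were all 8 of the triple mutant and both of p53 -/- at 3 h, with adjusted p up to 0.272. Its changes at 1 h and 2 h were 0.46 (adjusted p = 1.00) and 0.58 (adjusted p = 0.419).

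In p53 +/+ embryos at 3 h nfe2l2b rose by 0.79 (SE 0.188, adjusted p = 0.0404), and in p53 -/- embryos its change was 0.07 at 1 h (adjusted p = 1.00) and -0.19 at 3 h (adjusted p = 0.818). The p53 +/+ call was lost under median-of-ratios scaling, under quantile normalization and in a fit of the p53 +/+ libraries alone, and without any 1 of 13 libraries (adjusted p up to 0.193). The 5 libraries whose omission kept it were replicate 2 of untreated p53 +/+ and those of p53 -/- untreated and at 1 h. The response of nfe2l2b in the triple mutant exceeded that in p53 -/- embryos at 3 h by 1.76 (SE 0.266, adjusted p = 0.0131), 1 of 38 members beside 0.280% of all genes. This difference was no longer called without either p53 -/- library at 3 h, replicate 2 of untreated p53 -/-, or any of the 4 triple mutant libraries untreated or at 3 h, with adjusted p up to 0.104. The same difference for p53 +/+ over p53 -/- was 0.98 (SE 0.266, adjusted p = 0.341). For the triple mutant over p53 +/+ it was 0.77 (adjusted p = 0.648). Neither passed the test, so a difference in the rise between the triple mutant and p53 +/+ was not shown.

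**Figure D1:**
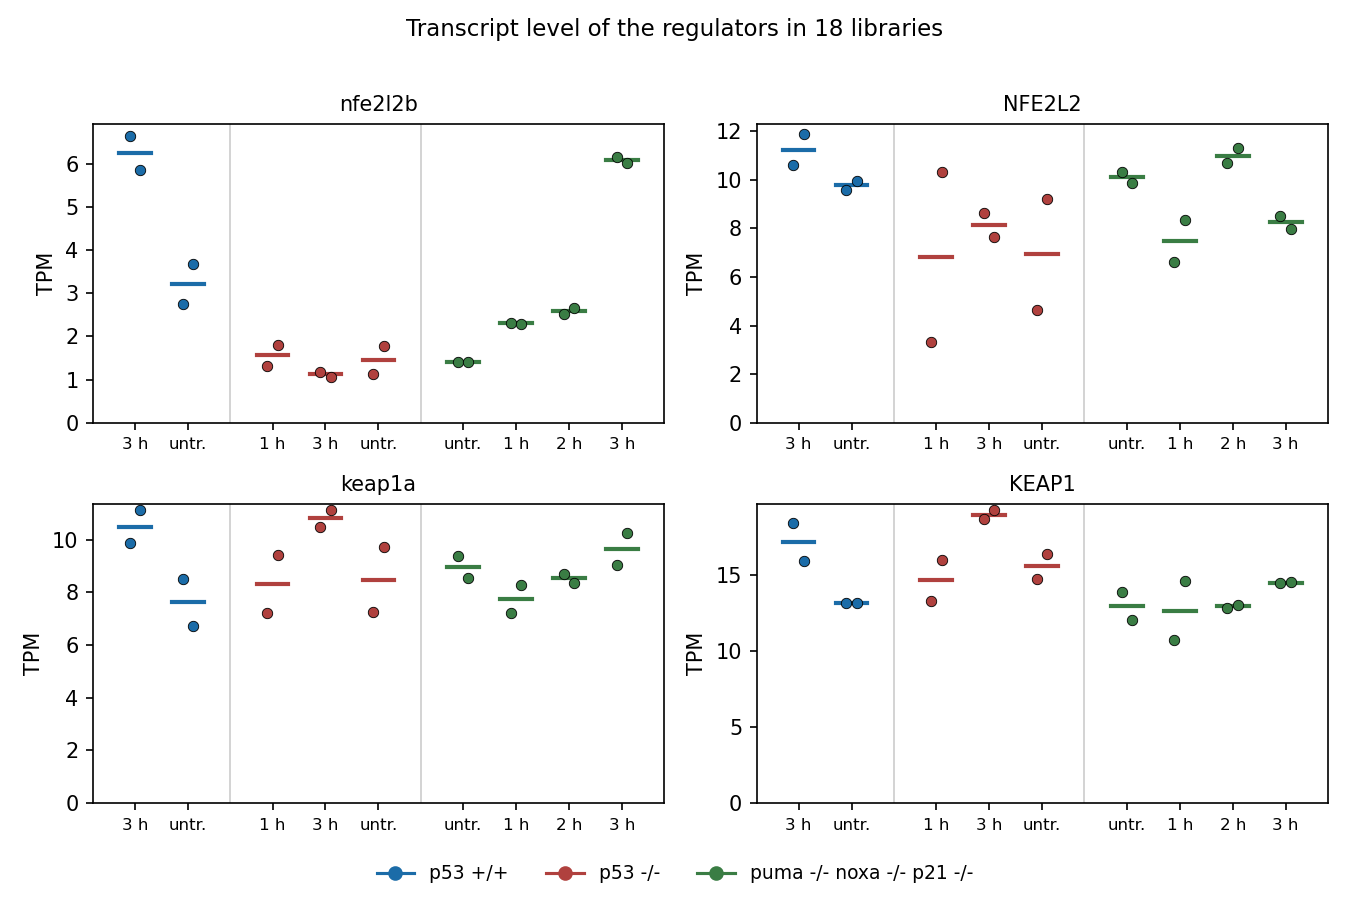
TPM (vertical axes, from 0) of nfe2l2b, NFE2L2, keap1a and KEAP1 in each library (points) with group means (bars), for p53 +/+, p53 -/- and triple mutant embryos, untreated (untr.) or at the given time after irradiation. The points of nfe2l2b reach 6.03 to 6.17 TPM at 3 h in the triple mutant and 5.85 to 6.66 TPM at 3 h in p53 +/+, and stay at 1.06 to 1.80 TPM in p53 -/-.

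The other regulators did not pass the joint test in any comparison. NFE2L2 (ENSDARG00000042824), the row matched to nfe2l2a, the paralogue that activates antioxidant genes in zebrafish, was at 10.6 and 11.9 TPM in p53 +/+ embryos at 3 h, against 9.58 and 9.96 TPM untreated. NFE2L2 in p53 -/- embryos was at 3.34 and 10.3 TPM at 1 h and 8.62 and 7.63 TPM at 3 h, against 4.63 and 9.22 TPM untreated. NFE2L2 in the triple mutant was at 10.3 and 9.87 TPM untreated, 6.60 and 8.36 TPM at 1 h, 10.7 and 11.3 TPM at 2 h, and 8.52 and 7.98 TPM at 3 h. The p53 -/- groups overlapped widely, and the triple mutant was lower than untreated at 1 h and 3 h and higher at 2 h in both libraries. In the fit of its 8 libraries NFE2L2 was called only after rescaling by median of ratios, at 1 h (-0.38, adjusted p = 0.0459) and 3 h (-0.34, adjusted p = 0.0398).

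The gene keap1a, which codes for a Keap1 protein, was at 9.86 and 11.1 TPM in p53 +/+ embryos at 3 h, against 8.52 and 6.71 TPM untreated. keap1a in p53 -/- embryos was at 7.22 and 9.42 TPM at 1 h and 10.5 and 11.1 TPM at 3 h, against 7.25 and 9.71 TPM untreated. keap1a in the triple mutant was at 9.38 and 8.55 TPM untreated, 7.20 and 8.26 TPM at 1 h, 8.71 and 8.36 TPM at 2 h, and 9.05 and 10.2 TPM at 3 h. Both 3 h libraries of p53 +/+ and of p53 -/- thus lay above the untreated ones, by 0.42 (adjusted p = 0.278) and 0.33 (adjusted p = 0.635).

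KEAP1 (ENSDARG00000074634), the row matched to keap1b, was at 18.5 and 15.9 TPM in p53 +/+ embryos at 3 h, against 13.2 and 13.2 TPM untreated. KEAP1 in p53 -/- embryos was at 13.3 and 16.0 TPM at 1 h and 18.7 and 19.3 TPM at 3 h, against 14.7 and 16.4 TPM untreated. KEAP1 in the triple mutant was at 13.9 and 12.0 TPM untreated, 10.8 and 14.6 TPM at 1 h, 12.8 and 13.0 TPM at 2 h, and 14.5 and 14.5 TPM at 3 h. In each genotype the 3 h group of KEAP1 lay above its untreated group without overlap. The differences of 0.36 in p53 +/+ (adjusted p = 0.302) and 0.27 in p53 -/- (adjusted p = 0.663) did not pass. That of 0.16 in the triple mutant did not pass either. The medians over all genes in these comparisons were also above 0, at 0.23, 0.17 and 0.07. The share of all genes whose 3 h and untreated libraries do not overlap was not counted, for KEAP1 or for other members.

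Among the enzymes, those called were in p53 +/+ embryos at 3 h, and all were higher. Besides nfe2l2b these were GSR, GCLM and TALDO1, which makes 4 of 38 members called beside 3.78% of all genes, or 702 genes, with 3.11% of all genes called higher. Of the 38 members, 34 had a change above 0, with a median of 0.29, while the median over all genes was 0.23, and 21 members lay above it. Under median-of-ratios scaling, which brings the median of all genes to -0.01, 19 members had a change above 0, the members' median was 0.00 and no member was called. A fit of the p53 +/+ libraries alone also called 0 of 36 members (5 at an unadjusted p under 0.05), where 91 genes or 0.521% were called.

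**Figure D2:**
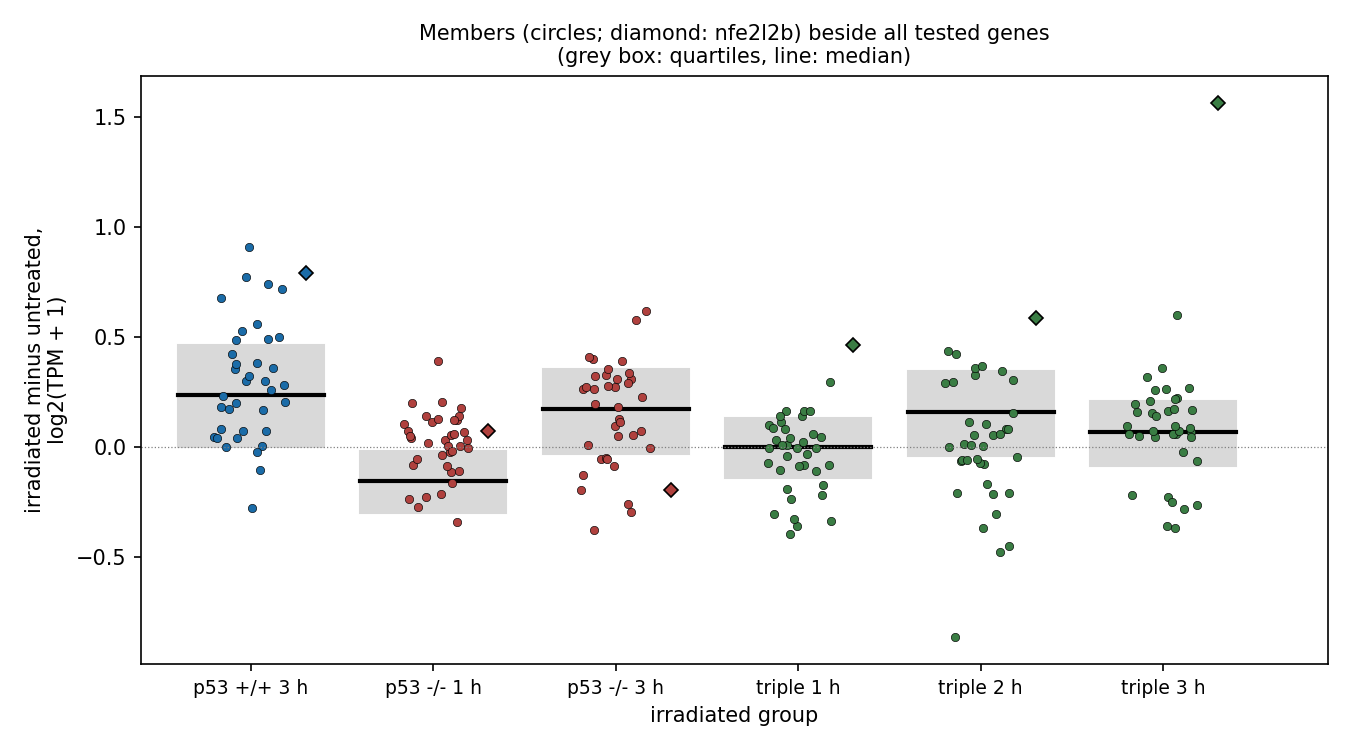
Change of each of the 38 members (circles, with nfe2l2b as a diamond; irradiated minus untreated, log2(TPM + 1)) in the 6 irradiated groups, beside all 18575 genes (grey boxes, quartiles; black lines, medians). In p53 +/+ at 3 h 21 members lie above the all-gene median of 0.23, and nfe2l2b stands apart in the triple mutant at 3 h at 1.56.

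Glutathione is made in a pair of steps. GCLC and GCLM form glutamate-cysteine ligase, the first and limiting enzyme, and GSS adds glycine. GCLM (ENSDARG00000018953), the modifier subunit, was at 20.3 and 23.3 TPM in p53 +/+ embryos at 3 h, against 12.9 and 13.5 TPM untreated. It was at 12.6 and 15.8 TPM at 1 h and 18.8 and 16.1 TPM at 3 h in p53 -/- embryos, against 11.9 and 15.8 TPM untreated. GCLM in the triple mutant was at 16.4 and 17.6 TPM untreated, 18.1 and 18.5 TPM at 1 h, 21.6 and 20.5 TPM at 2 h, and 19.5 and 20.5 TPM at 3 h. GCLM rose in p53 +/+ embryos by 0.68 (SE 0.169, adjusted p = 0.0480) and was higher in both libraries at every irradiated time of the triple mutant. In p53 -/- embryos both 3 h libraries of GCLM also lay above both untreated ones, by 0.32 (adjusted p = 0.581).

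GCLC (ENSDARG00000013095), the catalytic subunit, was at 28.9 and 26.7 TPM in p53 +/+ embryos at 3 h, against 17.6 and 19.4 TPM untreated. GCLC in p53 -/- embryos was at 12.3 and 25.3 TPM at 1 h and 30.9 and 29.6 TPM at 3 h, against 18.8 and 27.4 TPM untreated. GCLC in the triple mutant was at 19.6 and 16.7 TPM untreated, 16.2 and 20.0 TPM at 1 h, 19.2 and 21.2 TPM at 2 h, and 17.5 and 18.1 TPM at 3 h. Its 3 h libraries lay above the untreated ones in p53 +/+ (0.56, SE 0.271, adjusted p = 0.314) and in p53 -/- (0.40, adjusted p = 0.702), and overlapped them in the triple mutant.

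GSS (ENSDARG00000037706) was at 10.3 and 9.38 TPM in p53 +/+ embryos at 3 h, against 4.37 and 6.50 TPM untreated, a difference of 0.77 that did not pass (SE 0.355, adjusted p = 0.286). GSS in p53 -/- embryos was at 2.80 and 7.73 TPM at 1 h and 6.17 and 6.16 TPM at 3 h, against 3.69 and 6.98 TPM untreated. GSS in the triple mutant was at 4.61 and 3.85 TPM untreated, 4.08 and 5.52 TPM at 1 h, 4.95 and 6.20 TPM at 2 h, and 4.91 and 4.79 TPM at 3 h. The wide pairs of GSS and GCLC in untreated p53 -/- and at 1 h are those in which 5.8S RNA differed, and in each the library of high 5.8S content was the lower.

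GSR (ENSDARG00000019236), which reduces spent glutathione with NADPH, had the largest change among members in p53 +/+ embryos. It was at 40.8 and 28.6 TPM at 3 h, against 19.8 and 16.0 TPM untreated, and rose by 0.91 (SE 0.176, adjusted p = 0.0153). GSR in p53 -/- embryos was at 20.7 and 20.9 TPM at 1 h and 25.1 and 26.1 TPM at 3 h, against 18.2 and 19.9 TPM untreated. GSR in the triple mutant was at 24.8 and 23.7 TPM untreated, 21.5 and 24.3 TPM at 1 h, 25.6 and 24.7 TPM at 2 h, and 26.3 and 30.6 TPM at 3 h. In p53 -/- embryos all 4 irradiated libraries lay above the untreated ones, with 0.41 at 3 h (adjusted p = 0.460), and the difference between the p53 +/+ and p53 -/- responses, 0.50 (SE 0.249, adjusted p = 1.00), did not pass.

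TALDO1 (ENSDARG00000103369), a transaldolase of the pentose phosphate pathway, was at 233 and 249.8 TPM in p53 +/+ embryos at 3 h, against 174 and 122 TPM untreated. It rose by 0.72 (SE 0.170, adjusted p = 0.0397). TALDO1 in p53 -/- embryos was at 199 and 244 TPM at 1 h and 267 and 264 TPM at 3 h, against 243 and 268 TPM untreated, where the groups overlapped. TALDO1 in the triple mutant was at 189.7 and 172 TPM untreated, 203 and 243 TPM at 1 h, 237 and 249 TPM at 2 h, and 235 and 217 TPM at 3 h, with all 6 irradiated libraries above both untreated ones. The difference at 3 h in the triple mutant was 0.32 (adjusted p = 1.00).

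All 4 calls in p53 +/+ embryos were lost under median-of-ratios scaling, quantile normalization and the fit of that genotype alone, in which their direction was kept. With a pseudocount of 0.1 TPM the calls of GCLM (adjusted p = 0.0510) and nfe2l2b (adjusted p = 0.0794) were lost, and those of GSR and TALDO1 held. With no filter on low values nfe2l2b was lost (adjusted p = 0.0551) and the other 3 held. GSR also lost its call without replicate 1 at 3 h or replicate 2 of the untreated group (adjusted p up to 0.115). GCLM was called only on leaving out a p53 -/- library of the untreated or 1 h group, and was lost without any of the other 14 (adjusted p up to 0.326). TALDO1 was lost without any of 15 libraries, the exceptions being replicate 1 of untreated p53 +/+ and both of p53 -/- at 1 h (adjusted p up to 0.255). The untreated p53 +/+ pair is 1 of the pairs that differ in 5.8S content. Without the 3 libraries of high 5.8S content 17 of 38 members were called in this comparison, where 28.5% of all genes were called, and without the 3 of low content 19 of 37, where 58.2% were called. Each touched group then rested on 1 library, assumed to vary like the others. A call there says little about a member, since so many of all genes were called.

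**Figure D3:**
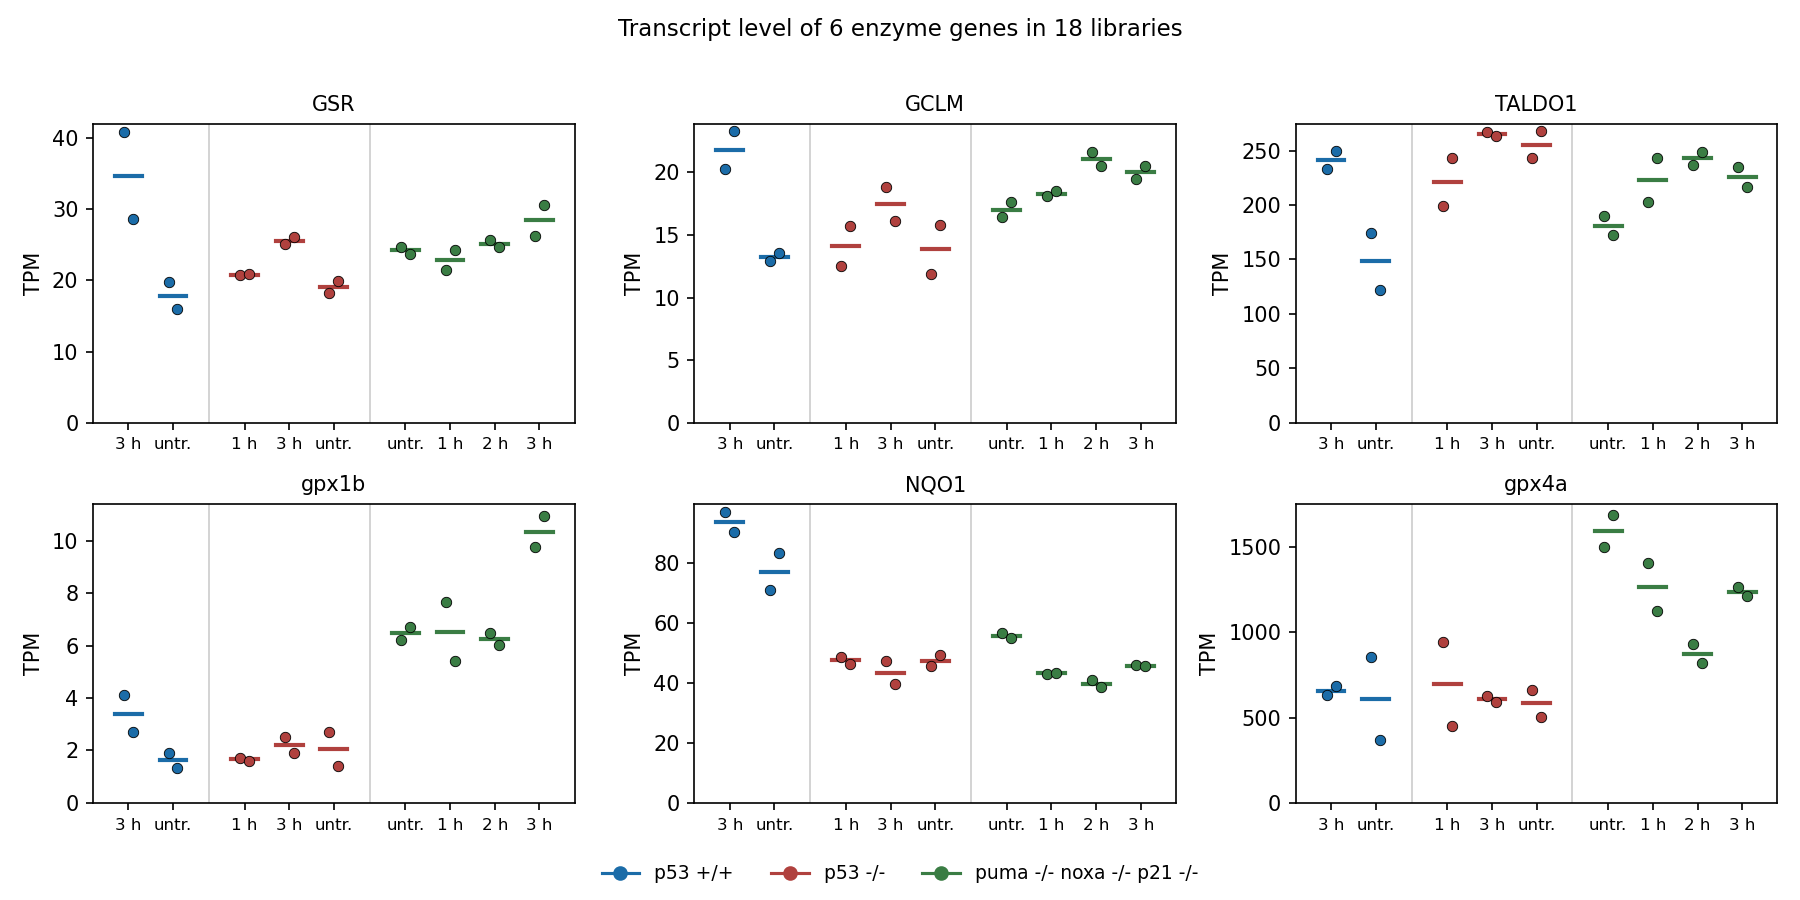
TPM (vertical axes, from 0) of GSR, GCLM, TALDO1, gpx1b, NQO1 and gpx4a in each library (points) with group means (bars). GSR reaches 28.6 and 40.8 TPM in p53 +/+ at 3 h, against 16.0 and 19.8 TPM untreated, and gpx4a lies at 819.7 and 929 TPM at 2 h in the triple mutant, against 1499.7 and 1686 TPM untreated.

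In p53 -/- embryos no member was called at either time. At 1 h 0 of 38 members were called beside 0.00538% of all genes, which is 1 gene, and 0 members had an unadjusted p under 0.05 (limma). At 3 h 0 of 38 members were called beside 0.458% of all genes, and 3 members had an unadjusted p under 0.05. The members' median change was 0.03 at 1 h, with 32 members above the all-gene median of -0.15, and 0.19 at 3 h, near the 0.17 over all genes. Both groups of the 1 h comparison are pairs of unequal 5.8S content. In all 3 such pairs the library of high content was lower for 64.8% of all genes and for 12 of 38 members. The part of that difference in the 32 was not tested. The largest differences were in FTH1 and SOD1. A fit (limma) within the p53 -/- table called 0 of 36 members at both times, beside 0% of genes at 1 h and 0.00568% at 3 h, with 0 and 1 members at an unadjusted p under 0.05. At 3 h 14 of 37 members were called when the 3 libraries of low 5.8S content were left out, beside 46.9% of all genes, and 3 of 38 when those of high content were, beside 8.46%. The untreated group was then 1 library.

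SOD1 (ENSDARG00000043848), the cytosolic superoxide dismutase, was at 70.7 and 70.5 TPM at 1 h and 98.6 and 85.9 TPM at 3 h in p53 -/- embryos, against 59.0 and 63.9 TPM untreated, with no overlap. The difference at 3 h was 0.58 (SE 0.149, adjusted p = 0.155). SOD1 in p53 +/+ embryos was at 75.6 and 77.3 TPM at 3 h, against 63.1 and 87.6 TPM untreated, values that overlap. The triple mutant stayed at 66.0 to 73.3 TPM in all 8 libraries.

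FTH1 (ENSDARG00000007975), the row matched to fth1b, was at 3.89 and 4.23 TPM at 1 h and 7.06 and 5.28 TPM at 3 h in p53 -/- embryos, against 3.73 and 3.55 TPM untreated. The difference at 3 h was 0.62 (SE 0.182, adjusted p = 0.227). It was at 5.71 and 4.41 TPM in p53 +/+ embryos at 3 h, against 4.25 and 4.25 TPM untreated. FTH1 in the triple mutant was at 5.53 and 5.98 TPM untreated, 5.93 and 5.65 TPM at 1 h, 6.86 and 5.68 TPM at 2 h, and 6.18 and 5.8 TPM at 3 h. Irradiated and untreated FTH1 values thus did not overlap in p53 -/- or p53 +/+ and overlapped at each time in the triple mutant.

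SOD3 (ENSDARG00000070168), an extracellular superoxide dismutase, was at 28.2 and 24.0 TPM in p53 +/+ embryos at 3 h, against 13.8 and 22.9 TPM untreated. SOD3 in p53 -/- embryos was at 12.6 and 28.0 TPM at 1 h and 21.5 and 17.5 TPM at 3 h, against 15.2 and 32.8 TPM untreated. SOD3 in the triple mutant was at 16.3 and 12.0 TPM untreated, 15.5 and 16.1 TPM at 1 h, 13.4 and 13.1 TPM at 2 h, and 16.0 and 16.2 TPM at 3 h. The spread within the untreated and 1 h pairs of p53 -/- exceeded the difference of any irradiated group from untreated. The mitochondrial SOD2 ranged over 11.9 to 27.0 TPM and catalase (CAT) over 2.92 to 10.5 TPM, and neither was called in any comparison.

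In the triple mutant a fit of its 8 libraries alone called more members than the fit over all 18 libraries. Its paired libraries agreed closely (r from 0.991 to 0.994). So did those of p53 -/- at 3 h (r = 0.994) and p53 +/+ at 3 h (r = 0.987). The 3 pairs of unequal 5.8S content agreed less (r from 0.907 to 0.963). The joint fit called 0 of 38 members at 1 h (2 at an unadjusted p under 0.05) beside 0.0808% of all genes, and 0 at 2 h (5 at an unadjusted p under 0.05) beside 0.221%. At 2 h 10 members lay above the all-gene median of 0.16, and the members' median was 0.01. The fit of the 8 libraries called 1 of 37 members at 1 h beside 2.71% of genes, 11 at 2 h beside 24.3% and 4 at 3 h beside 6.82%. The 11 at 2 h were 6 higher, beside 18.4% of genes, and 5 lower, beside 5.83%. Median-of-ratios factors were computed once over all 18 libraries, not among these 8. When these libraries were rescaled by them, the 10 members called at 2 h were 1 higher, beside 9.09% of genes, and 9 lower, beside 10.4%. The 4 at 3 h were 1 higher, beside 3.78%, and 3 lower, beside 5.48%. The 1 higher member at both times was nfe2l2b, so the higher calls of the other members depend on the scaling.

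The members called lower at 2 h were led by gpx4a (ENSDARG00000068478), the most abundant glutathione peroxidase, a selenoprotein that reduces lipid peroxides in membranes. gpx4a in the triple mutant was at 1499.7 and 1686 TPM untreated, 1405 and 1126 TPM at 1 h, 929 and 819.7 TPM at 2 h, and 1263 and 1214 TPM at 3 h. All irradiated libraries lay below both untreated ones, and both at 2 h lay below those at 1 h and 3 h. The change at 2 h was -0.87, with SE 0.109 and adjusted p = 0.00182 in the fit of the 8 libraries and adjusted p = 0.602 in the joint fit. In p53 +/+ embryos gpx4a was at 630.2 and 683 TPM at 3 h, against 854 and 367 TPM untreated. gpx4a in p53 -/- embryos was at 944 and 451 TPM at 1 h and 626 and 589 TPM at 3 h, against 662 and 504 TPM untreated. The untreated and 1 h pairs spanned the values of the irradiated groups at 3 h, with the higher value in the library of high 5.8S content.

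GPX7 (ENSDARG00000091511), a peroxidase of the endoplasmic reticulum, was at 48.6 and 47.6 TPM in untreated triple mutants, 46.5 and 42.6 TPM at 1 h, 35.5 and 34.5 TPM at 2 h, and 37.2 and 36.9 TPM at 3 h. By the fit of the 8 libraries it fell by 0.45 at 2 h (adjusted p = 0.00808) and by 0.37 at 3 h (adjusted p = 0.0282). GPX7 in p53 +/+ embryos was at 26.3 and 29.7 TPM at 3 h, against 46.9 and 24.7 TPM untreated. GPX7 in p53 -/- embryos was at 38.7 and 27.8 TPM at 1 h and 28.6 and 28.6 TPM at 3 h, against 36.4 and 34.5 TPM untreated. At 3 h the GPX7 values of p53 -/- lay below the untreated ones in both libraries, with a difference of -0.30 and adjusted p = 0.769 in the joint fit.

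NQO1 (ENSDARG00000010250), a quinone reductase and a standard readout of Nrf2 activity, was at 56.6 and 54.9 TPM in untreated triple mutants, 43.1 and 43.4 TPM at 1 h, 41.1 and 38.6 TPM at 2 h, and 45.9 and 45.5 TPM at 3 h. All irradiated libraries lay below the untreated ones. The fit of the 8 libraries called it lower at 1 h (-0.36, adjusted p = 0.0447) and at 2 h (-0.48, adjusted p = 0.00540). On rescaling by median of ratios NQO1 was not called at 1 h (-0.34, adjusted p = 0.0793) and was called lower at 2 h and 3 h. NQO1 in p53 +/+ embryos was at 96.8 and 90.3 TPM at 3 h, against 70.8 and 83.4 TPM untreated, higher in both libraries by 0.28 (adjusted p = 0.295). NQO1 in p53 -/- embryos was at 48.8 and 46.3 TPM at 1 h and 47.3 and 39.7 TPM at 3 h, against 45.7 and 49.3 TPM untreated. The response of NQO1 in the triple mutant differed from that in p53 +/+ by -0.56 at 3 h, which did not pass (SE 0.185, adjusted p = 0.608).

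The members called higher in the triple mutant by the fit of its libraries included nfe2l2b at 2 h and 3 h, GCLM (0.29) and TALDO1 (0.42) at 2 h, and HMOX1 and TXNRD3. Rescaling by median of ratios ended the calls of GCLM (0.11, adjusted p = 0.445), TALDO1 (0.23, adjusted p = 0.0681) and HMOX1 (adjusted p = 0.356 at 2 h and 0.0693 at 3 h). HMOX1 (ENSDARG00000027529), heme oxygenase, was at 83.6 and 76.0 TPM untreated, 75.8 and 85.2 TPM at 1 h, 100.4 and 96.8 TPM at 2 h, and 107 and 98.5 TPM at 3 h, and rose by 0.30 at 2 h (adjusted p = 0.0367) and 0.36 at 3 h (adjusted p = 0.0427). It was at 54.7 and 62.8 TPM in p53 +/+ embryos at 3 h, against 37.5 and 55.6 TPM untreated. HMOX1 in p53 -/- embryos was at 31.0 and 45.0 TPM at 1 h and 58.7 and 56.4 TPM at 3 h, against 37.8 and 54.5 TPM untreated. HMOX1 at 3 h was above both untreated libraries in p53 -/- and the triple mutant and overlapped them in p53 +/+. In the joint fit the adjusted p was 0.476 in p53 +/+, 0.697 in p53 -/- and 1.00 in the triple mutant.

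TXNRD3 (ENSDARG00000100374), a thioredoxin reductase, was at 62.4 and 61.9 TPM in untreated triple mutants, 53.3 and 69.2 TPM at 1 h, 76.4 and 83.7 TPM at 2 h, and 64.4 and 65.3 TPM at 3 h. It rose at 2 h by 0.36 (adjusted p = 0.0471) in the fit of the 8 libraries, a call that rescaling by median of ratios ended (0.17, adjusted p = 0.143). It was at 74.8 and 86.6 TPM in p53 +/+ embryos at 3 h, against 65.5 and 92.6 TPM untreated. TXNRD3 in p53 -/- embryos was at 45.4 and 112 TPM at 1 h and 105 and 101 TPM at 3 h, against 73.5 and 95.9 TPM untreated. The 1 h pair of TXNRD3 spanned every other p53 -/- library. The remaining members called at 2 h fall outside the rule for named genes and are named after their values were seen: PGD, of the pentose phosphate pathway, rose by 0.37, and GPX4 and prdx5 changed by -0.37 and -0.30. After rescaling PGD was not called (0.18, adjusted p = 0.112), and GPX4 and prdx5 were still lower.

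**Figure D4:**
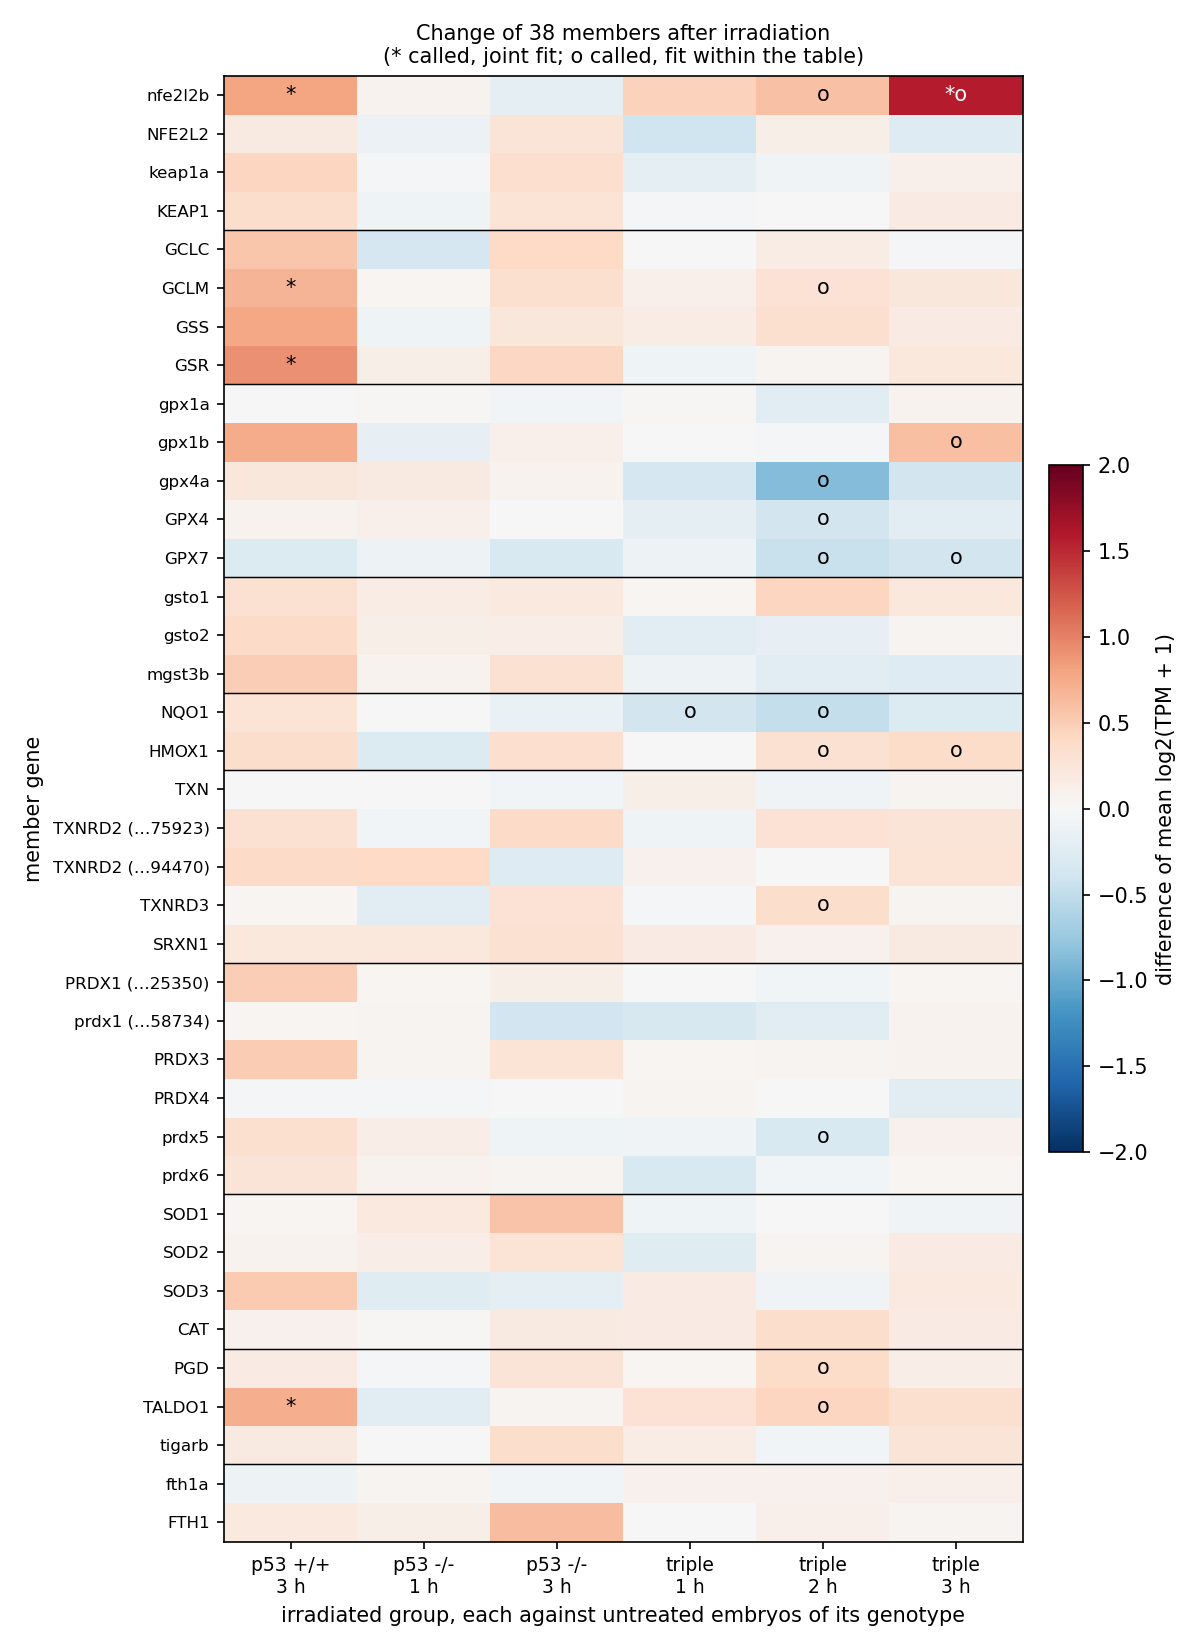
Difference of mean log2(TPM + 1), irradiated minus untreated, for the 38 members (rows, by role) in the 6 irradiated groups (columns; red higher, blue lower). A star marks a call in the joint fit (4 in p53 +/+ at 3 h, 1 in the triple mutant at 3 h), and a circle one in the fit within the genotype's table (1, 11 and 4 in the triple mutant at 1 h, 2 h and 3 h).

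The peroxidase gpx1b (ENSDARG00000006207) was at 6.23 and 6.72 TPM in untreated triple mutants, 7.65 and 5.40 TPM at 1 h, 6.47 and 6.02 TPM at 2 h, and 9.76 and 10.9 TPM at 3 h. The 3 h libraries were the 2 highest of the 18, and the fit of the 8 libraries called the rise of 0.60 (adjusted p = 0.0433), which was lost on rescaling by median of ratios (0.54, adjusted p = 0.116). In p53 +/+ embryos gpx1b was at 4.11 and 2.71 TPM at 3 h, against 1.90 and 1.34 TPM untreated, by 0.74 (SE 0.252, adjusted p = 0.137 in the joint fit). gpx1b in p53 -/- embryos was at 1.73 and 1.60 TPM at 1 h and 2.50 and 1.90 TPM at 3 h, against 2.71 and 1.40 TPM untreated. Thus gpx1b was above untreated in both 3 h libraries of p53 +/+ and the triple mutant and overlapped in p53 -/-. The differences between its responses, 0.65 for p53 +/+ and 0.51 for the triple mutant over p53 -/-, did not pass (adjusted p = 1.00 for both).

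Peroxiredoxins reduce peroxides and are recycled by thioredoxin. The second PRDX1 row, prdx1 (ENSDARG00000058734), was at 135 and 132 TPM in untreated triple mutants, 107 and 106 TPM at 1 h, 114 and 116 TPM at 2 h, and 131 and 151 TPM at 3 h. The fit of the 8 libraries called it higher at 3 h than at 1 h by 0.40 (adjusted p = 0.0350), where 2 of 37 members were called beside 2.62% of genes, nfe2l2b being the other. On rescaling by median of ratios that call of prdx1 was lost (0.30, adjusted p = 0.147). prdx1 in p53 +/+ embryos was at 62.3 and 91.3 TPM at 3 h, against 109.7 and 48.8 TPM untreated. prdx1 in p53 -/- embryos was at 116 and 61.8 TPM at 1 h and 62.0 and 63.7 TPM at 3 h, against 93.2 and 71.9 TPM untreated. As with gpx4a, the higher prdx1 value of each wide pair was in the library of high 5.8S content. PRDX3, PRDX4, prdx5 and prdx6 ranged over 62.1 to 107, 73.4 to 115, 173 to 392 and 56.3 to 87.7 TPM and were not called in the joint fit. SRXN1, which repairs peroxiredoxins, ranged over 3.78 to 16.1 TPM, with its highest and lowest values in untreated and 1 h libraries of the wide pairs.

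TXNRD2 (ENSDARG00000075923), the mitochondrial thioredoxin reductase, was at 2.09 and 3.49 TPM in p53 +/+ embryos at 3 h, against 1.09 and 3.39 TPM untreated. It was at 0.19 and 3.86 TPM at 1 h and 2.67 and 1.92 TPM at 3 h in p53 -/- embryos, against 0.61 and 2.88 TPM untreated. TXNRD2 in the triple mutant was at 2.84 and 2.80 TPM untreated, 2.10 and 3.21 TPM at 1 h, 3.31 and 4.06 TPM at 2 h, and 3.31 and 3.89 TPM at 3 h. A second TXNRD2 row (ENSDARG00000094470) was listed at 0 in both libraries of p53 -/- at 3 h and of the triple mutant untreated and at 2 h. Elsewhere that row held 1.33 and 0.00 TPM in p53 +/+ at 3 h, against 0.38 and 0.00 TPM untreated. It held 0.00 and 1.46 TPM in p53 -/- at 1 h, against 0.43 and 0.00 TPM untreated, and 0.00 and 0.12 TPM at 1 h and 0.41 and 0.03 TPM at 3 h in the triple mutant. For the first row the 2 h and 3 h libraries of the triple mutant lay above both untreated ones, which did not pass (adjusted p = 0.931 and 1.00), and the groups of the other genotypes overlapped.

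The glutathione transferase gsto1 (ENSDARG00000022183) was at 1.02 and 0.87 TPM in p53 +/+ embryos at 3 h, against 0.67 and 0.49 TPM untreated. gsto1 in p53 -/- embryos was at 0.67 and 0.90 TPM at 1 h and 0.69 and 1.02 TPM at 3 h, against 0.57 and 0.66 TPM untreated. gsto1 in the triple mutant was at 0.60 and 0.66 TPM untreated, 0.58 and 0.79 TPM at 1 h, 1.15 and 1.26 TPM at 2 h, and 1.04 and 0.74 TPM at 3 h. Every 2 h and 3 h library of gsto1 was above the untreated ones of its genotype, with no call (adjusted p = 0.367 in p53 +/+ and 0.513 at 2 h in the triple mutant). All its values were low, at 0.49 to 1.26 TPM. It passed the filter of 1 TPM only through irradiated libraries, so the filter favoured this direction. The transferases gsto2 and mgst3b ranged over 18.0 to 37.2 TPM and 42.6 to 169.6 TPM, and the peroxidase gpx1a over 30.8 to 65.9 TPM, with no call in the joint fit.

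TIGAR, a phosphatase that p53 induces in human cells and that diverts sugar to the pentose phosphate pathway, has the paralogues tigara and tigarb in zebrafish. The gene tigarb (ENSDARG00000045858) was at 3.98 and 2.69 TPM in p53 +/+ embryos at 3 h, against 2.82 and 2.78 TPM untreated, so the groups overlapped. tigarb in p53 -/- embryos was at 1.95 and 3.03 TPM at 1 h and 3.82 and 3.07 TPM at 3 h, against 2.44 and 2.48 TPM untreated. tigarb in the triple mutant was at 2.60 and 2.77 TPM untreated, 2.60 and 3.59 TPM at 1 h, 2.75 and 2.35 TPM at 2 h, and 3.59 and 3.24 TPM at 3 h. Its differences at 3 h were 0.17, 0.36 and 0.26 in p53 +/+, p53 -/- and the triple mutant (adjusted p = 0.748, 0.651 and 1.00). The other paralogue, tigara (ENSDARG00000051749), was at 0.47 and 0.69 TPM in p53 +/+ embryos at 3 h, against 0.51 and 0.46 TPM untreated. In p53 -/- embryos tigara was at 0.49 and 0.48 TPM at 1 h and 0.43 and 0.54 TPM at 3 h, against 0.68 and 0.63 TPM untreated. The same gene in the triple mutant was at 0.91 and 0.48 TPM untreated, 0.60 and 0.50 TPM at 1 h, 0.63 and 0.78 TPM at 2 h, and 0.60 and 0.71 TPM at 3 h. All 18 tigara values were below 1 TPM, with no call made.

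Of the 4 comparisons between responses, the other 3 held no called member. For p53 +/+ over p53 -/- at 3 h 0 of 38 members were called beside 0.382% of all genes, with 4 at an unadjusted p under 0.05. For the triple mutant over p53 +/+ at 3 h the count was 0 beside 0.0592%, with 3 at an unadjusted p under 0.05. For the triple mutant over p53 -/- at 1 h it was 0 beside 0.0269%, with 0 at an unadjusted p under 0.05. These comparisons share untreated and irradiated libraries with each other and with that in which nfe2l2b was called.

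Levels also differed between the triple mutant and the other genotypes whether or not embryos were irradiated. All 8 triple mutant libraries lay above all 10 others in 4 of 38 members, beside 4.47% of genes, and below them in 1 of 38, beside 5.00%. These members were chosen by their separation and are given as a description: gpx1b, mgst3b, HMOX1 and TXN were above and CAT below. TXN was at 1269.6 to 1542 TPM in the triple mutant and 211 to 519 TPM in p53 +/+ and p53 -/-. CAT was at 2.92 to 4.73 TPM in the triple mutant and 7.27 to 10.5 TPM in the other genotypes. Summed over members, the level was 5522 to 6488 TPM in the triple mutant and 3708 to 5165 TPM in the others. That sum follows the most abundant members, fth1a, gpx4a and TXN, and does not describe the members in general. gpx4a was at 819.7 to 1686 TPM in the triple mutant and 367 to 944 TPM in the others. fth1a was at 1159 to 1265 TPM and 1054 to 1501 TPM. Genotype and deposited table cannot be told apart here.

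Levels of members also differed within the 3 pairs of libraries with unequal 5.8S content. These pairs differed in more than 5.8S RNA. In each, the library of high 5.8S content had fewer genes at 1 TPM or more. Its share of TPM from mitochondrial genes was also lower (1.54% to 2.66%, against 5.21% to 8.06%). In all 3 pairs the library of high 5.8S content was higher for 15 of 38 members, beside 8.67% of all genes, and lower for 12 of 38, beside 64.8%. The 15 included the abundant gpx4a, GPX4, TXN, PRDX1, prdx1, prdx5 and prdx6, and also the low gpx1b (mean of 4.50 TPM). The 12 included GCLC, GCLM, GSS, HMOX1, NFE2L2, nfe2l2b and SRXN1, and also TXNRD3 (mean of 77.2 TPM). The most abundant member, fth1a, was in neither set. These pairs lie within groups, so radiation does not separate them, and their part in the differences between groups was not tested beyond the fits without those libraries.

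**Figure D5:**
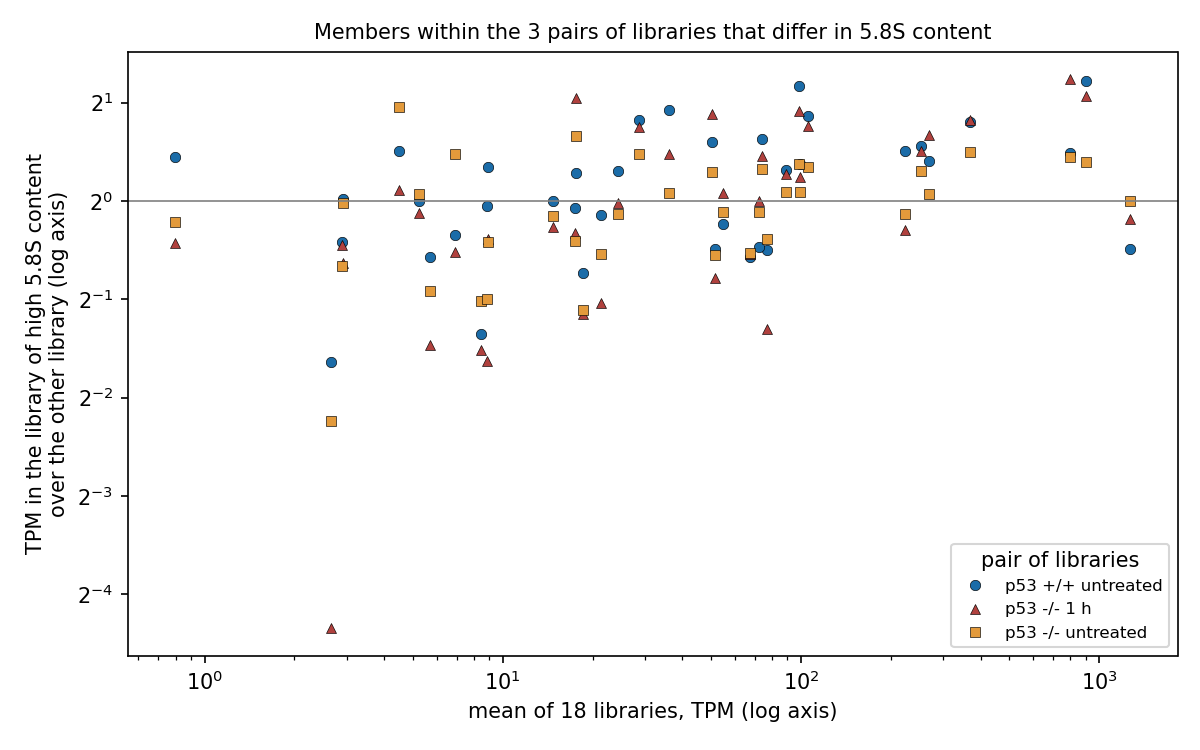
TPM in the library of high 5.8S content over that in the other library of the same group (vertical, log axis) against the mean TPM over 18 libraries (horizontal, log axis), for the tested members in untreated p53 +/+, untreated p53 -/- and 1 h p53 -/- embryos. TXNRD2 (ENSDARG00000094470), with values of 0, is left out; 15 members lie above the line of equal level in all 3 pairs and 12 below it.

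Other genes of the same pathways gave few calls outside p53 +/+ embryos in the joint fit. The lists covered glutathione supply, other transferases, glutaredoxins and thioredoxin-like proteins, NADPH supply and partners of Nrf2. They also covered Nrf2 targets of iron handling and export, selenoproteins with factors of their synthesis, and redox genes linked to p53. In these 8 lists 113 genes that are not members were found and 106 tested. In p53 +/+ embryos at 3 h 8 were called higher and 3 lower, beside 3.78% of all genes called. In p53 -/- embryos 0 were called at both times, beside 0.00538% and 0.458%. In the triple mutant 0 were called at 1 h, 1 at 2 h and 2 at 3 h, all higher, beside 0.0808%, 0.221% and 0.748%. Their median change was 0.35 in p53 +/+, 0.21 in p53 -/- and 0.13 in the triple mutant at 3 h, beside 0.23, 0.17 and 0.07 over all genes. The list of redox genes linked to p53 held 3 of the 8, from 7 genes tested, and both of those in the triple mutant at 3 h. The fit of the 8 triple mutant libraries called 3 higher and 2 lower of 102 listed genes at 1 h, beside 2.71% of genes. At 2 h it called 16 higher, beside 18.4%, and 9 lower, beside 5.83%. At 3 h it called 9 higher and 1 lower, beside 6.82% in either direction. The fit of the p53 +/+ libraries alone called 2 of 103, both higher, beside 0.521%.

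The sestrin sesn3 (ENSDARG00000015822), of a family that restrains oxidative stress and growth signalling, was at 108 and 126 TPM in p53 +/+ embryos at 3 h, against 9.82 and 12.1 TPM untreated. sesn3 in p53 -/- embryos was at 7.54 and 12.5 TPM at 1 h and 15.1 and 18.1 TPM at 3 h, against 12.2 and 14.8 TPM untreated. sesn3 in the triple mutant was at 12.4 and 11.8 TPM untreated, 24.7 and 25.3 TPM at 1 h, 31.7 and 31.2 TPM at 2 h, and 80.3 and 87.7 TPM at 3 h. It rose by 3.30 in p53 +/+ (adjusted p = 2.45e-06) and by 2.7 in the triple mutant at 3 h (adjusted p = 2.51e-05). Its response exceeded that in p53 -/- embryos by 3.02 in p53 +/+ and by 2.42 in the triple mutant (adjusted p = 0.000377 and 0.00219).

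SESN1 (ENSDARG00000020693), another sestrin, was at 85.9 and 87.2 TPM in p53 +/+ embryos at 3 h, against 16.3 and 28.5 TPM untreated, and rose by 1.96 (adjusted p = 0.00612). TP53INP1 (ENSDARG00000028017), a p53 target with antioxidant activity in mammals, was at 131 and 133 TPM in p53 +/+ at 3 h, against 18.5 and 23.0 TPM untreated, and rose by 2.62 (adjusted p = 0.00226). TP53INP1 in the triple mutant was at 18.9 and 20.0 TPM untreated and 147 and 152 TPM at 3 h, a rise of 2.88 (adjusted p = 0.00193). SESN1 in the triple mutant was at 14.2 and 11.7 TPM untreated and 37.5 and 42.1 TPM at 3 h, which did not pass in the joint fit (adjusted p = 0.0573). For neither SESN1 nor TP53INP1 did the difference from the p53 -/- response at 3 h pass, in p53 +/+ or in the triple mutant.

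The other genes of the lists called in p53 +/+ embryos were TXNIP (ENSDARG00000036107), which binds thioredoxin (1.02), MTHFD1, of folate metabolism (1.27), and the carbonyl reductase CBR1 (0.97), all higher. The selenoproteins selenot2 (1.11) and selenop (0.74) were also called higher. The ferritin-like fthl30 (-0.93) and fthl31 (-0.94) and the selenoprotein selenoh (-0.88) were lower. A second TXNIP row (ENSDARG00000070000, mean 5.78 TPM) was tested and not called. In the fit of the p53 +/+ libraries alone, sesn3 and TP53INP1 were the 2 listed genes still called. In p53 -/- embryos at 3 h none passed, yet several had values on the same side. MTHFD1 was at 107 and 109 TPM at 3 h in p53 -/-, against 65.7 and 89.8 TPM untreated, and at 94.7 and 115 TPM in p53 +/+ at 3 h, against 40.8 and 44.4 TPM untreated. The gene selenot2 was at 193 and 229 TPM at 3 h in p53 -/-, against 113 and 135 TPM untreated, and at 317 and 234 TPM in p53 +/+, against 126 and 126 TPM untreated. For selenoh the p53 -/- values were 67.9 and 64.6 TPM at 3 h, against 125 and 98.8 TPM untreated. Calls in p53 +/+ and none in p53 -/- thus do not show that these genes responded differently, and the differences between the responses did not pass for any listed gene but sesn3.

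Marker genes of cell types that a whole embryo holds were summed in each group. Red blood cell genes (7) summed to 2523 to 2606 TPM in p53 +/+ at 3 h, against 2449 to 2787 TPM untreated, and macrophage and neutrophil genes (4) to 130.3 to 143 TPM, against 134 to 143 TPM. Lens genes (5) summed to 809 to 841 TPM in p53 +/+ at 3 h, against 1153 to 1402 TPM untreated, and yolk and liver genes (6) to 15828 to 15970 TPM, against 9986 to 13829 TPM. Epidermal genes (5) summed to 13722 to 16807 TPM in the irradiated triple mutant, against 19697 to 20183 TPM untreated. The fit of its 8 libraries called 3, 3 and 5 of these 5 genes lower at 1 h, 2 h and 3 h, and 0 higher. Over all genes that fit called 2.71%, 24.3% and 6.82% in either direction. The joint fit called 0 of the 5 at each time. At 2 h in the triple mutant yolk and liver genes summed to 14317 to 15031 TPM, and macrophage and neutrophil genes to 159 to 166 TPM. Both lay below their untreated sums given below, and red blood cell and lens sums overlapped theirs. At 1 h yolk and liver genes summed to 14867 to 14980 TPM, also below untreated, and the other lists but epidermis overlapped. Among all lists and groups, 1 gene (yolk and liver, triple mutant at 3 h) was at 0 in both libraries. In the triple mutant at 3 h yolk and liver genes summed to 15199 to 15342 TPM, against 15893 to 16328 TPM untreated, with no overlap. The 3 remaining lists overlapped there, at 3355 to 3932 TPM for red blood cells, against 3134 to 3634 TPM untreated, 185 to 197 TPM for macrophages and neutrophils, against 172 to 198 TPM, and 536 to 601 TPM for lens, against 477 to 566 TPM. A sum follows its most abundant genes, apoa1a and apoa2 for yolk and liver (means of 6747 and 6931 TPM) and lyz for macrophages (124 TPM). The 4 yolk and liver genes tested had a median change of 0.22 in the triple mutant at 3 h, beside 0.07 over all genes. Of the 4 macrophage and neutrophil genes 1 was called higher in p53 +/+ at 3 h, beside 3.11% of all genes. Of the 5 lens genes 1 was called lower there, beside 3.78% of all genes called in either direction. In p53 -/- at 3 h red blood cell genes summed to 2555 to 2618 TPM, against 3067 to 3892 TPM untreated. Macrophage and neutrophil genes summed there to 116 to 120 TPM, against 125 to 130 TPM. Epidermal genes summed to 19945 to 21491 TPM, against 17812 to 18242 TPM, also without overlap. Yolk and liver and lens sums overlapped untreated ones, as did every list at 1 h in p53 -/-. The part of these lists in the changes of members was not tested.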

How the data were processed

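Whole-embryo RNA was sequenced after poly(A) selection, per the labels' protocols, as paired reads of either of 2 lengths, not given per library. The authors deposited TPM values in 3 tables, 1 per genotype; each of the 18 columns sums to 1000000 within 1. Per the submitters' processing notes, the tools were RSEM 1.3.3, STAR 2.7.3a, HTSeq 0.12.3, R 4.3.3 and DESeq2 1.42.1, and the build was GRCz11; what each did, the annotation and the filters are not given in the sources used here. TPM holds no counts, so depth is unknown and no counting interval was computed. Symbols came from a gene name table (28988 of 32057 genes). No coordinates or sequences are printed. The transcript level of the gene mutated in the p53 -/- embryos is not reported here.

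A gene was tested if 2 or more libraries reached 1 TPM (18575 genes). log2(TPM + 1) was computed from the deposited values, since TPM needs a log-scale model, and fitted with limma 3.58.1 in R 4.3.3 (9 groups, variance trend, 9 residual and 2.87 prior degrees of freedom), for 11 comparisons, two-sided, with Benjamini-Hochberg adjustment over all genes. No comparison sets levels of different tables against each other; those between genotypes subtract changes computed within tables. Alternatives were pseudocounts of 0.1 and 5, no filter, median-of-ratios scaling, quantile normalization, a fit within each table (genes filtered there), a replicate block, and omission of single libraries or of the 3 of high or low 5.8S content. The median-of-ratios factors came from all 18 libraries, also for fits within a table. The model was tested on simulated data with known shifts in the triple mutant at 3 h, placed in genes that were not low. Each gene was given the same spread in all libraries. That test therefore does not check calls of low genes, or calls where the spread differs between groups.

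Values in every library are given for members called in the joint fit, for the 5 largest changes of members per comparison with untreated embryos, and for nfe2l2, keap1 and tigar paralogues; listed pathway genes are named where called. The members and lists were chosen with earlier results of these data known.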

Additional observations from a re-analysis of the deposited data

Results flagged for a closer look

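The response of nfe2l2b at 3 h was larger in the triple mutant than in p53 -/- embryos by 1.76 on the log2(TPM + 1) scale (SE 0.266, adjusted p = 0.0131, limma test of the difference), with both triple mutant libraries at 3 h above both untreated ones and overlapping values in p53 -/-. It was called under 20 of 27 alternatives and lost without any 1 of 7 single libraries (adjusted p up to 0.104). The response of sesn3 differed from that in p53 -/- embryos by 3.02 in p53 +/+ and by 2.42 in the triple mutant (adjusted p = 0.000377 and 0.00219), and both differences were called under all 27 alternatives. The 2 comparisons share the p53 -/- libraries.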

How the results depend on the processing

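Counts below are of members called. In p53 +/+ at 3 h the 4 calls became 2 with a pseudocount of 0.1, 0 with median-of-ratios scaling, quantile normalization or the fit within the table (with either scaling), 1 with the replicate block, and 17 and 19 without the 3 libraries of high and of low 5.8S content. In p53 -/- the 0 at 1 h became 4 without those of low content, and the 0 at 3 h became 3 and 14 without those of high and of low content. In the triple mutant the 0 at 1 h became 1 within the table, 2 there with median-of-ratios scaling and 1 without the libraries of low content; the 0 at 2 h became 11, 10, and 9 without either set; the 1 at 3 h became 4, 4, and 2 without either set. For 3 h over 1 h the 1 became 2 within the table and 0 with a pseudocount of 0.1 or the block. Without the libraries of high and of low content, differences between responses gave 3 and 1 for p53 +/+ over p53 -/-, 2 and 5 for the triple mutant over p53 -/- at 3 h, 11 and 6 for the triple mutant over p53 +/+, and 4 (low only) for the triple mutant over p53 -/- at 1 h. Omitting 1 library at a time gave 0 to 5 in p53 +/+ at 3 h, 0 to 2 and 0 to 1 in p53 -/- at 1 h and 3 h, 0 to 1 for triple mutant 3 h over 1 h and for the triple mutant over p53 -/- at 3 h, and no other change. Among named genes called in the joint fit or the alternative, the direction turned in 2 cases. Both were in p53 +/+ at 3 h without the libraries of low content, gpx4a to -0.38 and prdx1 (ENSDARG00000058734) to -0.53. Further members turned sign in that comparison under median-of-ratios scaling, where none was called. The cause of these shifts was not tested. Fewer libraries remain in several of these fits. Without the libraries of high or of low 5.8S content, each touched group rested on 1 library. For every difference between responses, the highest count of all genes called among the alternatives was also far above that of the joint fit. All counts of members in this paragraph, also those with 1 library omitted, are given without a share of all genes. They thus say little about the members.

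Over all genes the 702 calls in p53 +/+ at 3 h ranged over 172 to 1900 with 1 library omitted and 72 to 10552 otherwise, the 1 in p53 -/- at 1 h over 0 to 4935 and 0 to 6151, and the 85 at 3 h over 29 to 231 and 0 to 8511. In the triple mutant the 15, 41 and 139 calls ranged over 5 to 27, 11 to 114 and 64 to 197 with 1 library omitted, and 11 to 669, 37 to 4077 and 110 to 1586 otherwise. With median-of-ratios scaling the split in p53 +/+ was 297 higher and 293 lower, beside 578 and 124.

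Labels do not pair libraries by number. Deviations of same-numbered libraries correlated at -0.34 in p53 +/+, 0.79 between untreated and 1 h p53 -/-, and -0.10 to 0.17 otherwise. With the block, p53 +/+ at 3 h had 697 genes and 1 member called, GSR, while GCLM, nfe2l2b and TALDO1 were not (adjusted p = 0.0637, 0.0572 and 0.0533). With numbers crossed in p53 +/+, chosen after seeing the data like the table fit with scaling, there were 797 genes and 3 members. Depth is unknown, so detection of members under 1 TPM cannot be bounded.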

Other observations

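At 2 h in the triple mutant, the fit of its 8 libraries called other selenoprotein genes lower beside gpx4a and GPX4. SELENOF fell by 0.44, SELENOK by 0.50 and selenow1 by 0.62 (adjusted p = 0.0118, 0.00571 and 0.00703), while SEPHS1 rose by 0.46 (adjusted p = 0.0149). That is 1 higher and 3 lower of 13 genes tested in the list of selenoproteins and factors of their synthesis, SEPHS1 being such a factor. The list was chosen with earlier results of these data known. Over all genes 18.4% were called higher and 5.83% lower. In the joint fit none of the 4 was called at 2 h. Of other members that code for selenoproteins, the fit of the 8 libraries called TXNRD3 higher at 2 h (0.36, adjusted p = 0.0471). It did not call gpx1a (-0.21), gpx1b (-0.045) or TXNRD2 (ENSDARG00000075923, 0.29). In the same fit 4 of the 7 redox genes linked to p53 were called higher at 2 h, with TP53INP1 at 1.91, sesn3 at 1.31, SESN1 at 0.99 and PLK3 at 0.93.

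Rows near the names that found no match were looked at as well. gstp1.2, a glutathione transferase of the pi class, was at 228 to 456 TPM over the 18 libraries, and gstp1.1 averaged 0.08 TPM. By the fit of the 8 triple mutant libraries gstp1.2 changed by -0.49 at 2 h (adjusted p = 0.00374), and the MGST1 rows ENSDARG00000022165 and ENSDARG00000032618 by -0.34 and -0.45 (adjusted p = 0.0324 and 0.0180). None of the 3 was called in the joint fit.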
